A study of Mus musculus with 16 samples.

Results

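The 8 genes described here encode the contractile proteins of slow muscle fibres: Myh7, Myh6, Myl2, Myl3, Tnnc1, Tnni1, Tnnt1 and Tpm3. Every probe other than a control that carried one of these gene names on the array was taken, which gave 13 probes out of 41174 and 8 of 27745 gene names. Of all probes 19398 passed a filter on signal over background, and all 13 probes of the slow-fibre genes were among them. The 13 probes were well above background in both channels on all 16 arrays and were saturated on none.

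Muscle fibres contract when myosin heads pull on actin filaments, and each part of this machinery exists in forms that are typical of slow or of fast fibres. Slow fibres are rich in mitochondria, resist fatigue and use the heavy chain encoded by Myh7, whereas most fibres of the mouse gastrocnemius are fast. Calcium starts contraction by binding to troponin C, which with troponin I and troponin T shifts the position of tropomyosin on the actin filament. Several of the slow forms are also those of the heart.

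Gene expression was measured in the gastrocnemius, a muscle of the calf, of 16 male C57BL/6N mice, 1 two-colour array per mouse. All mice were given from an age of 3 months a corn-oil-based high-fat diet with about 35% lipids for 8 weeks, with rosiglitazone, a drug that activates PPARγ in fat cells above all, mixed in at 10 mg per kg diet. The 8 cHF+ROSI mice received nothing else. For the 8 cHF+F+ROSI mice, 15% of the dietary lipids were exchanged for an n-3 LC-PUFA concentrate with 46% DHA and 14% EPA. Before killing, all 16 mice were fasted for 10 h and re-fed Chow overnight, so mice that stayed on the high-fat diets, and mice without rosiglitazone, were not part of this comparison. RNA of each mouse was labelled with Cy5 and an equimolar reference pool of array samples with Cy3. The methods place mice on a higher rosiglitazone dose in the pool when describing another array study of this work. They do not list the pooled groups separately for these 16 arrays. A value below is the log2 ratio of a mouse to that pool. It shows how a probe differed between mice, and not how strongly one gene was expressed compared with another. In whole muscle, fewer slow fibres and less RNA of these genes per fibre cannot be told apart.

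Each of 4 slides held 4 arrays, 2 of each group, and cHF+ROSI always took positions 1 and 3 while cHF+F+ROSI took 2 and 4, so position on the slide and diet cannot be told apart. The median Cy5 signal over background was 2.33 on the array of cHF+ROSI 1 and between 2.98 and 3.64 on the other 15 arrays. In the array of cHF+F+ROSI 2, the mouse with the lowest slow-fibre values below, it was 2.98. The 7 markers of skeletal muscle fibre that passed the filter had a mean log2 ratio of -0.37 in this mouse, inside the range of the cHF+F+ROSI mice from -0.46 to -0.04. Of 8 markers of heart muscle, 3 passed the filter, and 5 were well above background in Cy5 on all 16 arrays. Of the others, Nppa was so on 13 arrays, Mybpc3 on 8 and Myl7 on 2. The mean of the 3 that passed was 0.07 in cHF+F+ROSI 2, the highest of its group. Of 6 probes for endothelial markers, 3 were lower in cHF+F+ROSI at an unadjusted p of 0.05 or less (3.95% of all probes were), with a median log2 fold change of -0.16 over the 4 genes, while of those for adipocytes, red blood cells, macrophages, fibroblasts, smooth muscle, nerve and satellite cells 0 were lower or higher. Of the 4 probes for heart muscle 1 was lower and 1 higher, as of the 10 probes for developing or regenerating fibres. The part of other cell types in the values below was not tested.

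Probe sequences were not used here, and the promoters of the 8 genes were taken from RefSeq (GRCm38.p6), with 12 start sites in all. In the 250 bases before each start, the motif CATTCC, known as the M-CAT element to which TEAD factors bind, was searched on both strands and was found before 4 of the 12 start sites. Of the 32851 promoters in the same table, 12.6% held it. These 4 are shown because they hold the motif, with CATTCC or its reverse complement in capitals, and, in Myl3, also a CArG box, the site of serum response factor.

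Myh7, chr14:54994627-54994876, minus strand: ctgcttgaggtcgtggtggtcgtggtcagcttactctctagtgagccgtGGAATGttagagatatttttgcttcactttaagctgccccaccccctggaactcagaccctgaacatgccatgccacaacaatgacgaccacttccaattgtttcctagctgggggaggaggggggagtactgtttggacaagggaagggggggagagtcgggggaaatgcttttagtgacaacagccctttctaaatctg
Myh6, chr14:54966608-54966857, minus strand: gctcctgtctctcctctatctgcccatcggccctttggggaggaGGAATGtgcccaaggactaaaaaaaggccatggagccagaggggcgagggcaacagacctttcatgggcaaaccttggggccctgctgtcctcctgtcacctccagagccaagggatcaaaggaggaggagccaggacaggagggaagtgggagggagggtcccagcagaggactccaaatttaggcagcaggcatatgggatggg
Myl3, chr9:110763428-110763677, plus strand: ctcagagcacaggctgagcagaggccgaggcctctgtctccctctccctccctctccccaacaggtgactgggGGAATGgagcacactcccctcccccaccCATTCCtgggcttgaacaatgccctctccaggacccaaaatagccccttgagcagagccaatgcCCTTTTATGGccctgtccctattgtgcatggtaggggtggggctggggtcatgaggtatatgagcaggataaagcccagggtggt
Tnnc1, chr14:31208062-31208311, plus strand: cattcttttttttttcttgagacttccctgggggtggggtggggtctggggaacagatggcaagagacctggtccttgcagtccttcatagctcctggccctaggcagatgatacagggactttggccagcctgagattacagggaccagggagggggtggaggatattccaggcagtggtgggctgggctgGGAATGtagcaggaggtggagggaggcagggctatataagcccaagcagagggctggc

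In Tnnc1 the match lay nearest to the start, with its first base 58 bases upstream. In Myl3 there were 2 matches, at 177 and 149 bases, and the CArG box lay at 85 bases. A CArG box stood in 1 of the 12 windows and in 1.47% of all promoters, and a MEF2 box in 0 of 12 and in 2.92% of all. The E-box CANNTG, the site of the MyoD family, was found in all 12 windows and in 66.2% of all promoters. A second start site of Myh7, whose window overlaps the one printed, held no CATTCC.

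The first question was whether n-3 LC-PUFA feeding changed the slow-fibre genes. In limma 0 of their 13 probes reached an unadjusted p of 0.05, which 7.44% of all 19398 probes did. With a fold change of at least 1.2 as well it was 0 of 13, beside 1.49% of all, and with 1.5 it was 0 of 13, beside 0.149%. An adjusted p of 0.05 was passed by 0 of the 13 and by 0.0155% of all. By the methods' t-test it was also 0 of 13 without adjustment, beside 7.54% of all. The log2 fold change of cHF+F+ROSI against cHF+ROSI was negative for 12 of the 13 probes and for 50.7% of all probes, but most of the 13 vary together, so they do not count as 13 separate observations. With the brightest probe of each gene, probe 1 where a gene had 2, the median log2 fold change of the 8 genes was -0.41, beside 0.00 over all probes. Without the mouse cHF+F+ROSI 2 it was -0.13. In no probe were the groups separate, which was the case for 0.0773% of all probes.

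**Figure D1:**
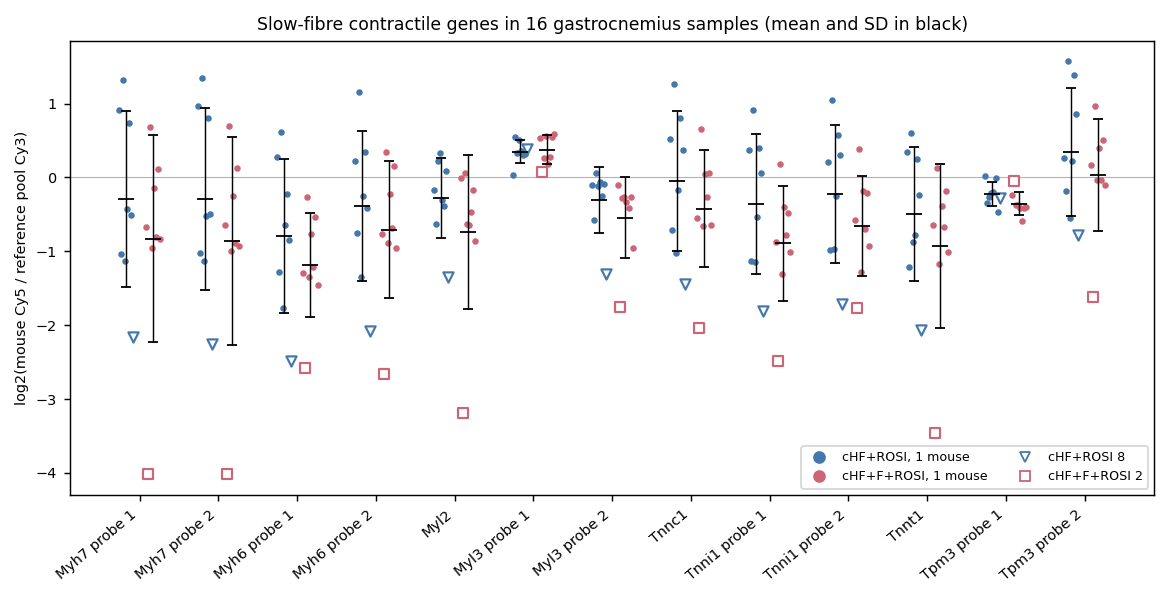
Log2 ratio of each mouse to the reference pool (vertical axis) for the 13 probes (horizontal axis), with blue for the 8 cHF+ROSI mice and red for the 8 cHF+F+ROSI mice, and the mean and SD of each group in black. Open symbols mark cHF+ROSI 8 and cHF+F+ROSI 2, which lie at the bottom of most probes. Myl3 probe 1 and Tpm3 probe 1 hardly spread.

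Myh7, the slow heavy chain, was measured by a pair of probes on chromosome 14 of the NCBI36 (mm8) assembly used in the files, from 53924898 to 53924957 and from 53924903 to 53924962 on the minus strand. Both carry the accession of the same transcript and share 55 of their 60 bases, so they are nearly the same measurement, and over the mice they differed by at most 0.10. For probe 1 the lowest, median and highest log2 ratios were -2.16, -0.47 and 1.32 in the cHF+ROSI mice, and -4.01, -0.74 and 0.69 in the cHF+F+ROSI mice. The lowest value of all belonged to cHF+F+ROSI 2 and the next lowest to cHF+ROSI 8, while 7 of the 8 cHF+F+ROSI mice lay inside the range of the cHF+ROSI mice. The highest mouse, cHF+ROSI 3, exceeded the lowest 40.2-fold. The group means were -0.83 ± 1.41 (SD, n = 8) in cHF+F+ROSI and -0.29 ± 1.19 (SD, n = 8) in cHF+ROSI, and the log2 fold change of -0.54 had a 95% interval from -1.77 to 0.69 (exact two-sided permutation test, p = 0.443, limma adjusted p = 0.878). Without cHF+F+ROSI 2 it was -0.09, with an interval from -1.03 to 0.86, and without cHF+ROSI 8 it was -0.81. Leaving out either of these mice moved the difference more than the choice of probe did, with -0.57 for probe 2. Other mice moved the difference as well, to -0.31 without cHF+ROSI 3 and to -0.76 without cHF+F+ROSI 3. Some hardly moved it, and without cHF+F+ROSI 8 it was still -0.54.

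Myh6, the alpha heavy chain, which is typical of the heart, lies beside Myh7 on chromosome 14. Its probe 1 matched from 53898964 to 53900549, with ends 1586 bases apart for a probe of 60, and probe 2 from 53900628 to 53900687. The file also lists the Myh7 transcript for both, so the signal of Myh6 and Myh7 cannot be told apart on these probes. For probe 1 the log2 ratios ran from -2.48 to 0.62 with a median of -0.74 in cHF+ROSI, and from -2.58 to -0.27 with a median of -1.26 in cHF+F+ROSI. Here the lowest mice of both groups were close to each other. The log2 fold changes were -0.39 (95% interval from -1.23 to 0.45) and -0.32 (from -1.24 to 0.60) for probes 1 and 2, with both intervals including 0. Without cHF+F+ROSI 2 they were -0.19 and -0.04.

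Myl2 encodes the regulatory light chain of slow fibres and of the heart ventricle, and its probe on chromosome 5 matched from 122364530 to 122365480. The log2 ratio was -1.35, -0.24 and 0.33 at the lowest, median and highest cHF+ROSI mouse, and -3.19, -0.55 and 0.06 in cHF+F+ROSI. Except for cHF+F+ROSI 2, the cHF+F+ROSI mice reached down only to -0.86, and their SD fell from 1.04 to 0.35 without it. The log2 fold change was -0.46 (95% interval from -1.25 to 0.32, exact two-sided permutation test, p = 0.323) and -0.11 without that mouse.

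Myl3, the essential light chain, had 2 probes on chromosome 9 that behaved differently. Probe 1, from 110613944 to 110614238, had log2 ratios from 0.03 to 0.55 in cHF+ROSI and from 0.07 to 0.58 in cHF+F+ROSI. Probe 2, from 110608637 to 110608696, ran from -1.31 to 0.06 and from -1.76 to -0.10. The correlation of both over the 16 mice, after centring within each group, was 0.19, and without cHF+F+ROSI 2 and cHF+ROSI 8 it was -0.29. Their log2 fold changes were 0.03 (95% interval from -0.15 to 0.21) and -0.24 (from -0.72 to 0.24). That of probe 2 was -0.07 without cHF+F+ROSI 2 and -0.38 without cHF+ROSI 8. The lowest value of probe 1 came from the dimmest array, cHF+ROSI 1, and its SD of 0.18 between mice was below the SD of 0.21 that the reference channel alone had at this probe over the 16 arrays. The part of brightness in the values of probe 1 was not tested. The direction of its log2 fold change was negative with median centring, with scale normalization, with the Cy5 channel alone and without cHF+ROSI 1.

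Tnnc1 encodes the troponin C shared by slow fibres and heart, and its probe lay on chromosome 14 from 30039183 to 30039599. The lowest, median and highest values were -1.44, 0.10 and 1.27 in cHF+ROSI and -2.03, -0.41 and 0.65 in cHF+F+ROSI. The order of the mice was close to that of Myh7, with cHF+ROSI 3 highest and cHF+F+ROSI 2 lowest. The log2 fold change was -0.37 (95% interval from -1.20 to 0.45) and -0.14 without cHF+F+ROSI 2. Within the 4 slides, each with 2 mice per group, it lay between -0.59 and -0.06, on the same side in all 4.

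Tnni1, the slow inhibitory troponin, was measured on chromosome 1 from 137625162 to 137626037 (probe 1) and from 137623982 to 137625063 (probe 2). In probe 1 the lowest, median and highest values were -1.81, -0.24 and 0.91 in cHF+ROSI and -2.48, -0.83 and 0.18 in cHF+F+ROSI. The probes followed each other with a correlation of 0.98 after centring within groups. Their log2 fold changes were -0.53 (95% interval from -1.35 to 0.29, exact two-sided permutation test, p = 0.239) and -0.43 (from -1.20 to 0.34, p = 0.305 by the same exact test), and both intervals included 0. Without cHF+F+ROSI 2 they were -0.31 and -0.27. Both were negative within all 4 slides, at -0.07 and -0.05 on slide 4. Apart from Tnnc1, no probe of another member gene was negative on all 4. Myh7 probe 1, Myh6 probe 1 and Tnnt1 were negative on 3 slides, with 0.58, 0.28 and 0.32 on slide 4. Myl2 was negative on 2.

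Tnnt1, the slow troponin T that ties the complex to tropomyosin, was measured on chromosome 7 from 4111571 to 4111630. Its values ran from -2.07 over a median of -0.50 to 0.60 in cHF+ROSI, and from -3.46 over -0.66 to 0.13 in cHF+F+ROSI. After cHF+F+ROSI 2 the next lowest cHF+F+ROSI mouse was at -1.17. The log2 fold change was -0.43 (95% interval from -1.38 to 0.53) and -0.07 without that mouse.

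Tpm3, the slow alpha tropomyosin, also has forms that occur in many other cells, and its 2 probes on chromosome 3 disagreed. Probe 2, from 90175738 to 90175947, ran from -0.78 to 1.57 in cHF+ROSI and from -1.61 to 0.97 in cHF+F+ROSI and followed the other slow genes. Probe 1, from 90186351 to 90186410, ran from -0.47 to 0.01 and from -0.59 to -0.05. Over the mice the correlation of the pair was -0.22 after centring within groups, and in cHF+F+ROSI 2 probe 1 was the highest of its group while probe 2 was the lowest. The log2 fold change of probe 2 was -0.31 (95% interval from -1.08 to 0.45) and -0.08 without that mouse, and that of probe 1 -0.14 (from -0.30 to 0.03, exact two-sided permutation test, p = 0.116). Without cHF+F+ROSI 2 that of probe 1 was -0.18, with an adjusted p of 0.614 from limma, and it was then at an unadjusted p under 0.05. In the Cy3 channel, where every array carried the same pool, probe 1 was higher by 0.08 on the cHF+F+ROSI arrays. It was 1 of the 13 probes to reach an unadjusted p of 0.05 in that channel, beside 3.47% of all probes. With the Cy5 channel alone the log2 fold change of probe 1 was -0.03.

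**Figure D2:**
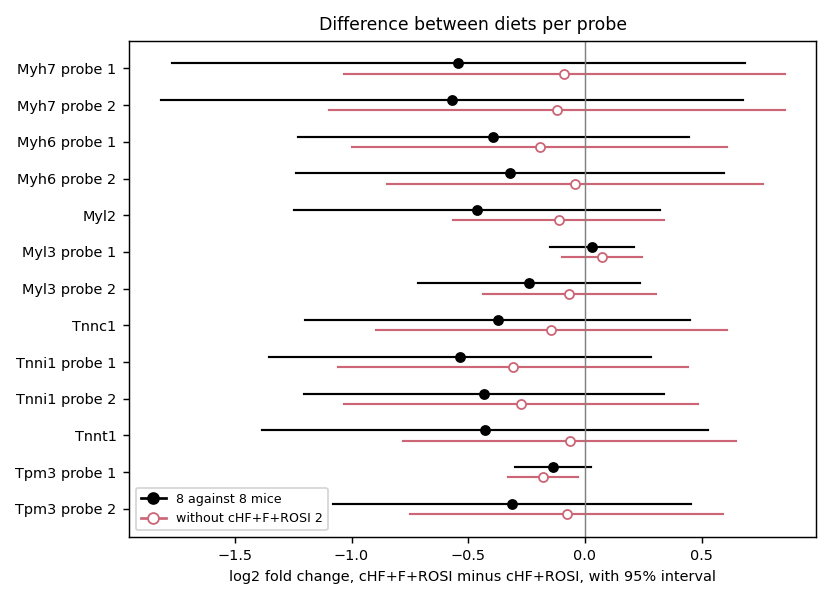
Log2 fold change of cHF+F+ROSI against cHF+ROSI (horizontal axis) with its 95% interval from limma for each of the 13 probes, in black with 8 mice against 8 and in red without cHF+F+ROSI 2. All 13 black intervals include 0, and without that mouse the values lie nearer to 0 for the 11 widely varying probes.

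The spread between mice was the leading feature of these genes. The SD within groups, pooled over both, had a median of 0.87 over the 13 probes and of 0.14 over all 19398 probes. It lay above the 90th percentile of all probes, 0.28, for 11 of the 13 probes and above the 99th, 0.60, for 10. Myh7 had the widest spread with an SD of 1.30 for probe 1, followed by Tnnt1 with 1.01, and the exceptions were Myl3 probe 1 and Tpm3 probe 1 with 0.18 and 0.16. From the lowest to the highest mouse the ratio rose 16.7-fold for Tnnt1, 11.5-fold for Myl2 and 9.88-fold for Tnnc1, and 1.52-fold for Tpm3 probe 1. For Tnnt1, Myl2 and Tnnc1 the lowest mouse was cHF+F+ROSI 2. Without it the SD of the cHF+F+ROSI mice fell from 1.41 to 0.61 for Myh7 probe 1 and from 1.11 to 0.45 for Tnnt1. The cHF+ROSI mice had an SD of 1.19 and 0.91 for these probes. The reference channel alone did not show this spread. Its SD over the 16 arrays had a median of 0.07 over the 13 probes as over all probes, and the largest of the 13 was 0.24, for Myh7. With the Cy5 channel alone cHF+F+ROSI 2 was the lowest mouse for 12 of the 13 probes, and with log2 ratios it was so for 11.

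**Figure D3:**
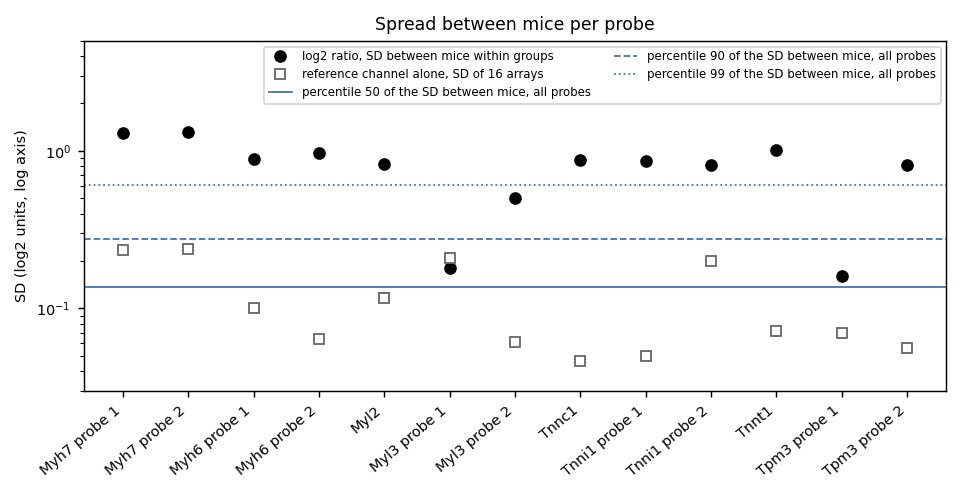
SD in log2 units on a log axis for each of the 13 probes. Filled circles give the spread of log2 ratios between mice within groups, open squares the spread of the reference channel over 16 arrays, and the lines mark the 50th, 90th and 99th percentile of the spread between mice over all probes, 0.14, 0.28 and 0.60.

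Most of the slow-fibre probes moved together from mouse to mouse. Over all 13 probes, 65 of 78 pairs had a positive correlation in cHF+ROSI (median 0.76, lowest -0.62). In cHF+F+ROSI it was 66 of 78 (median 0.90, lowest -0.73). Leaving out Myl3 probe 1 and Tpm3 probe 1, which hardly spread, all 55 pairs of the other 11 probes had a positive correlation within each group. Their median was 0.93 over the 8 cHF+ROSI mice and 0.97 over the 8 cHF+F+ROSI mice. Without cHF+F+ROSI 2 the latter was 0.94, and without cHF+ROSI 8 the former was 0.89, with single pairs down to 0.23 and 0.01. These correlations describe values from the same arrays, which share RNA, labelling and normalization, and probes of 1 gene are among the pairs. Within this group the light chains stood closer to each other than to the rest. Myl2 and Myl3 probe 2 had a correlation of 0.92 over the 16 mice and of 0.87 without cHF+F+ROSI 2, whereas that of Myl2 with Myh7 probe 1 was 0.81 and 0.60. In cHF+ROSI 4 the Myl2 ratio of 0.33 was the highest of all mice, while Myh7 was at -1.14 and Tnni1 probe 1 at -1.15.

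The mean over the 8 genes took each by its brightest probe, so Myl3 and Tpm3 entered with probe 1, which hardly spread. This mean ranged in cHF+ROSI from -1.40 in replicate 8 to 0.62 in replicate 3. In cHF+F+ROSI it ranged from -2.22 in replicate 2 to 0.17 in replicate 3. It was -0.27 ± 0.66 (SD, n = 8) in cHF+ROSI and -0.62 ± 0.71 (SD, n = 8) in cHF+F+ROSI. Without replicate 2, the SD of the other 7 cHF+F+ROSI mice was 0.33.

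**Figure D4:**
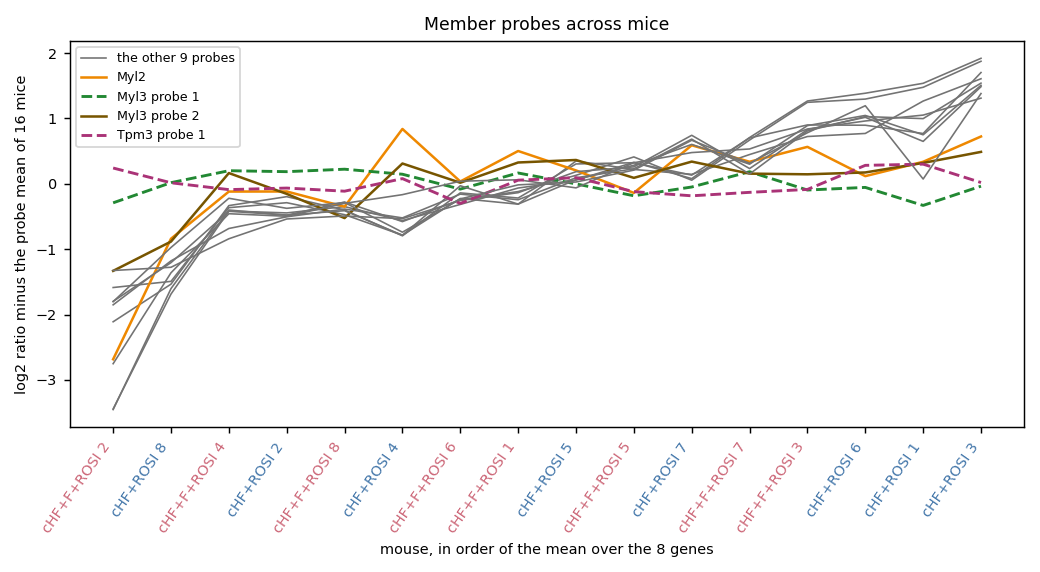
Log2 ratio of each probe minus its mean over 16 mice (vertical axis), with the mice in order of the mean over the 8 genes (horizontal axis, labels blue for cHF+ROSI and red for cHF+F+ROSI). The lines of 11 probes rise together from cHF+F+ROSI 2 to cHF+ROSI 3, Myl2 and Myl3 probe 2 share a course of their own in between, and the dashed lines of Myl3 probe 1 and Tpm3 probe 1 stay flat.

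The fast counterparts of these proteins were looked at beside them. Of 26 probes for 15 fast-fibre genes, 1 was lower at an unadjusted p of up to 0.05 (3.95% of all probes were), a probe of Tpm1, fast tropomyosin, with a log2 fold change of -0.15 (adjusted p = 0.626 from limma), and 0 passed after adjustment. The median log2 fold change of these genes was 0.01 and their median SD 0.23. For the heavy chains the brightest probes gave log2 fold changes of -0.22 for Myh2, the heavy chain of fast oxidative fibres (-0.02 without cHF+F+ROSI 2), -0.07 for Myh4, that of the fastest fibres, and values from -0.07 to 0.03 over the 3 probes of Myh1. The brightest probes of the light chains gave 0.12 for Myl1 and 0.17 for Mylpf, those of the fast troponins 0.01 for Tnnc2, -0.12 for Tnni2 and -0.09 for Tnnt3, and that of Tpm1 0.07, all of them at an unadjusted p over 0.05. The mean of all fast genes had a correlation with the slow-fibre mean of 0.07 over 16 mice after centring within groups, and of -0.33 without cHF+F+ROSI 2 and cHF+ROSI 3. For the brightest probe of Myh2 it was 0.74 and 0.61, and its value of -1.20 in cHF+F+ROSI 2 was the lowest of all mice. Over 16 mice the brightest probes of Myh1 and Tpm2 had correlations of 0.50 and 0.48, and those of Myh4 and Pvalb, the calcium buffer of fast fibres, of -0.40 and -0.70. For Myh4 and Pvalb cHF+F+ROSI 2 had the highest value of all mice, 0.68 and 0.95.

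The 10 genes whose values were most like the mean of the slow genes were found among 19310 probes by correlation after centring within groups, over 16 mice and without the pair farthest from the median, cHF+F+ROSI 2 and cHF+ROSI 3. The first was Atp2a2, the calcium pump of slow fibres, with correlations of 0.95 and 0.91. It ran from -0.9998 over a median of 0.41 to 1.09 in cHF+ROSI, and from -1.54 over 0.14 to 0.89 in cHF+F+ROSI, with cHF+F+ROSI 2 lowest and cHF+ROSI 3 highest, as for Myh7. Its log2 fold change was -0.19 (95% interval from -0.86 to 0.48) and 0.04 without cHF+F+ROSI 2. Next came Fxyd6, a regulator of the sodium pump (0.88 and 0.86), an unnamed transcript listed as NAP046356-1, Nnt, the mitochondrial transhydrogenase, Ldhb, the lactate dehydrogenase subunit of oxidative tissue (0.87 and 0.83), Acadm, which starts the breakdown of medium-chain fatty acids (0.87 and 0.83), Dhrs4, Pnpla2, the triglyceride lipase of fat droplets (0.90 and 0.82), Pla2g12a and Etfa, an electron carrier of fatty acid oxidation (0.87 and 0.82). Of these 10 probes none had an unadjusted p of up to 0.05 between the diets.

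Opposite to the slow genes ran Med25, a subunit of the Mediator complex (-0.92 and -0.89), Rxra, the partner receptor of PPARs (-0.94 and -0.88), Gamt, which makes creatine (-0.84 and -0.87), Kctd15 and 2700089E24Rik. Their spread was small beside that of the slow genes, with an SD of 0.15 for Rxra. Rxra ran from -0.02 over a median of 0.11 to 0.32 in cHF+ROSI and from 0.05 over 0.23 to 0.64 in cHF+F+ROSI, highest in cHF+F+ROSI 2. Gamt was the only 1 of these 5 genes with an unadjusted p of up to 0.05, at a log2 fold change of 0.31 (unadjusted p = 0.0124, adjusted p = 0.539 from limma).

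**Figure D5:**
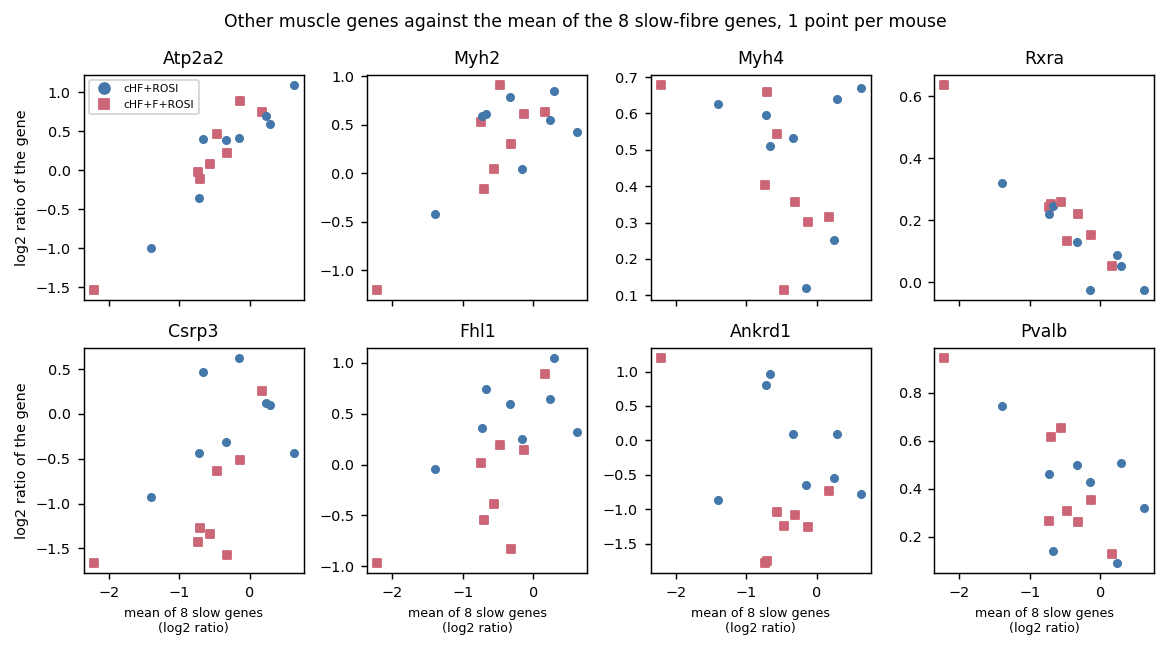
Log2 ratio of 8 other genes (vertical axes) against the mean log2 ratio of the 8 slow-fibre genes (horizontal axis), 1 point per mouse, blue circles for cHF+ROSI and red squares for cHF+F+ROSI. Atp2a2 rises and Rxra falls with the slow genes, whereas Csrp3, Fhl1 and Ankrd1 lie lower in many cHF+F+ROSI mice at the same slow-fibre mean, and Pvalb is highest in cHF+F+ROSI 2, the mouse with the lowest mean.

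Other genes known from slow fibres or from their stretch response were measured as well. Of 15 genes listed, 13 were on the array and 12 passed the filter, with 16 probes, of which 7 were lower and 0 higher at an unadjusted p of 0.05 or less, beside 3.95% of all probes lower. After adjustment 0 passed. The median log2 fold change of the 12 genes was -0.54 and their median SD 0.56. This list was made with results of these mice known, so its count is a description. Csrp3, a stretch sensor of the Z-disc, was at -0.93, -0.11 and 0.63 in the lowest, median and highest cHF+ROSI mouse and at -1.67, -1.31 and 0.25 in cHF+F+ROSI, where 3 of 8 mice lay inside the cHF+ROSI range. Its log2 fold change was -0.92 (95% interval from -1.49 to -0.36, exact two-sided permutation test, p = 0.0107, adjusted p = 0.372 from limma), and -0.83 without cHF+F+ROSI 2. Fhl1, a LIM protein of the sarcomere, had a log2 fold change of -0.68 (adjusted p = 0.468 from limma), Hspb7, a small heat shock protein, of -0.62 and -0.50 for its 2 probes, and Ankrd2, a stretch-induced protein typical of slow fibres, of -0.62. For Ankrd1, a stretch-induced titin partner, it was -0.85 (adjusted p = 0.629 from limma). The mouse cHF+F+ROSI 2, lowest for Csrp3 and Fhl1, was the highest of all mice for Ankrd1, and without it the log2 fold change was -1.16. Of the 4 probes of Atp2a2 3 passed the filter, and these had log2 fold changes from -0.19 to 0.10, and none was at an unadjusted p of up to 0.05.

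Among 28 regulators of fibre type, 24 genes with 49 probes passed the filter, and 4 probes were lower and 1 higher at an unadjusted p of up to 0.05, beside 7.44% of all probes in either direction and 3.95% lower. None of them passed an adjusted p of 0.05. Six4, a homeodomain factor active in muscle, was among the lower ones, with a log2 fold change of -0.17 (adjusted p = 0.457 from limma). For Sox6, a repressor of slow-fibre genes, 1 of 4 probes was higher, by 0.18 (adjusted p = 0.666 from limma), and its correlation with the slow-fibre mean was -0.59. The other 3 probes, the brightest among them, had log2 fold changes of -0.04, -0.04 and 0.01 and correlations of -0.05, 0.21 and 0.14. The list held Tead1, whose probe was well above background on 0 arrays, and Ppard, on 1 array. The median log2 fold change of the regulators was -0.04.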

How the data were processed

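RNA of 16 gastrocnemius samples was measured on two-colour arrays against a common pool. The authors deposited the spot intensities of Feature Extraction (10.5.1.1 per the file headers, 10.5.5.1 in the submitters' processing notes), with scans at 10% and 100% laser power joined, and a table of normalized log2 values from GeneMaths XT 2.12. Over the 8 cHF+ROSI arrays, differences between arrays in that table followed the log2 ratio of Cy5 over Cy3 with a correlation of at least 0.9999, and column medians lay between 9.47 and 9.49. The constant behind them is not given in the sources used here, and its cHF+F+ROSI columns name only the group.

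All spots entered the normexp correction of median signals (offset 50). Controls were then dropped, as were probes whose signal over background averaged under 2 in either channel, and outlier-flagged spots were set missing. Loess was run array by array, and replicate spots were then averaged. Groups were compared by limma 3.58.1 in R 4.3.3, the p-values of 19398 probes being adjusted after Benjamini-Hochberg, and single probes by the exact permutation test over 12870 splits. The smallest two-sided p it allows is 0.0001554. The 8 genes, the lists and the named genes (the 8 genes, the 10 most alike and 5 most opposite, their fast counterparts and up to 5 genes with the smallest p of each list) were chosen with earlier results of these data known. A gene of the regulator list that this rule names is not reported here. The chain was tested on simulated data. Of 120 pairs of arrays 0 were identical. Replicates are separate mice per the labels, and their number limits the precision.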

Additional observations from a re-analysis of the deposited data

Results flagged for a closer look

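In 30 groups of 8 values, for the 13 probes, the mean of the 8 genes and the brightness of the arrays, 10 had a highest or lowest value farther from its neighbour than the 95% critical value of Dixon's test, beside about 1.5 by chance, and many of these groups share the same mice.

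The mouse cHF+F+ROSI 2 was below its group in 7 of them. Its log2 ratio was -4.01 for Myh7 probe 1 (next -0.96), -4.02 for Myh7 probe 2 (next -0.99), -2.66 for Myh6 probe 2 (next -0.95), -3.19 for Myl2 (next -0.86), -3.46 for Tnnt1 (next -1.17), -1.61 for Tpm3 probe 2 (next -0.10) and -2.22 for the mean of the 8 genes (next -0.74). The part of tissue sampling in this mouse was not tested.

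Of the other 3, Myl3 probe 2 was -1.31 in cHF+ROSI 8 (next -0.58). Myl3 probe 1 was 0.031 in cHF+ROSI 1 (next 0.31), whose median Cy5 signal over background of 2.33 was also apart (next 3.02).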

How the results depend on the processing

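Over 31 other settings, 0 of the 13 probes passed an adjusted p of 0.05. At an unadjusted p of up to 0.05, 2 did with the replicate number as a block, both of Tnni1 (0.0326 and 0.0379, adjusted 0.652 and 0.653 from limma). Whether the numbers pair the mice is not given by the labels. Correlations of same-numbered mice ran from -0.34 to 0.73, with 4 of 8 over 0.1 and 2 of 8 best with their own number. These values cannot decide it. With this block the standard error was 0.22 for Tnni1, beside 0.39 without it, and 0.092 for Myl3, beside 0.086. With array quality weights, and without cHF+F+ROSI replicate 2 together with cHF+ROSI replicate 1 or replicate 8, the count of probes was 1, Tpm3 probe 1. Leaving out single mice gave 0 to 1. For these settings the share of all probes at the unadjusted limit is not given, so the counts cannot be read against it. The median of -0.41 became -0.12 with array quality weights and -0.05 without cHF+F+ROSI replicate 2 and cHF+ROSI replicate 1, and ran from -0.62 to -0.13 without single mice. Without these 2 mice Myh7 was 0.084 and Tnnt1 0.054. With all mice Myh7, at -0.54, was -0.95 with scale normalization and -0.11 with array quality weights, and Tnnt1, at -0.43, was -0.080 with these weights. Without single mice Myh7 ran from -0.81 to -0.088 and Tnnt1 from -0.65 to -0.066. The value of 0.03 for Myl3 was -0.0098 with median centring, -0.069 with scale normalization and -0.13 with the Cy5 channel alone, -0.014 to 0.074 without single mice and 0.079 without both low mice, cHF+F+ROSI replicate 2 and cHF+ROSI replicate 8. Over all probes the count of 3 at an adjusted p of 0.05 was 14 without background correction, 19 with processed signals, 1 with median centring, 0 with scale normalization, 8 with Cy5 alone, 10 in the authors' table, 0 with the replicate block, 14 with array weights and 3 to 5 without single mice. Leaving out both low mice together was chosen after the data were seen. The causes were not tested.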
